A study of Mus musculus with 4 samples.

Results

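The genes examined were the cytoplasmic ribosomal protein genes of the mouse: 82 genes with symbols of the Rpl or Rps series, Rplp0 to Rplp2 and Rpsa, out of 14561 genes listed over 4 single-cell libraries. Members were chosen by gene symbol alone, without the kinases named Rps6k. They comprised 50 genes of the large subunit and 32 of the small subunit, 5 of them paralogs named after another member (Rpl6l, Rpl7l1, Rpl22l1, Rpl36al and Rps27l). All 82 were listed in every library, and none had fewer than 30 unique molecular identifiers (UMIs, each standing for 1 captured transcript 3′ end) in any library. The libraries came from the lungs of mixed FVB/C57BL6 mice. All of them bore the alleles Sftpc-CreER, Rosa26-Zsgreen and Hopx-RFP and had been given tamoxifen, in 1 or 2 doses. Sftpc-CreER acts in surfactant protein C-expressing cells, so that Zsgreen marks the AT2 lineage, while Hopx-RFP reports a gene of AT1 cells. Cells sorted as RFP+Pdpn+GFP-CD45- gave 1 library of alveolar type I (AT1) cells at each of 3 ages, P3, P15 and P60, where the number is the postnatal day. Cells sorted as GFP+CD45- gave 1 library of alveolar type II (AT2) cells at P60. Both digestions used neutral protease and DNase I, and that for AT1 cells also held elastase and a collagenase of type I.

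Each ribosome has a small subunit, which reads the mRNA, and a large subunit, which joins the amino acids, and each ribosomal protein of the core particle is present in a single copy apart from the stalk proteins. Their mRNAs are among the most abundant of growing cells, and many begin with a run of pyrimidines, the terminal oligopyrimidine (TOP) tract, through which mTORC1 signalling regulates their translation. AT1 cells are the thin, spread cells of gas exchange. AT2 cells are the cuboidal cells that secrete surfactant.

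With 1 library per group no difference could be tested, and age, cell type, digestion and library cannot be told apart where they differ together. The exact 95% intervals given reflect counting error and nothing else. AT1-like or AT2-like cells were used after clustering without the ribosomal protein genes: 2794 cells at P3, 2658 at P15 and 1067 at P60 for AT1, and 1958 for AT2, with 22148575, 13807018, 6063695 and 9850819 UMIs. From the AT1-like and AT2-like clusters, 52, 13, 61 and 64 cells with several markers of another cell type had been set aside. Values given for single clusters include such cells. Median depth of the cells used was 7272.5, 4934.5, 5606 and 4887 UMIs per cell. The cells used were 88.7%, 90.4%, 79.8% and 93.5% of the cells in the 4 libraries. Because they were selected on markers, their marker levels describe them and do not check the labels: all 20 AT1 markers were detected in the AT1 cells, at 4.20%, 7.08% and 6.09% of UMIs at P3, P15 and P60 against 0.353% in AT2 cells, while AT2 markers made up 26.3% of UMIs in AT2 cells and at most 0.0805% in AT1 cells. Cell barcodes shared between libraries numbered 3 to 15 per pair.

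The sequences near the annotated start sites of the members on which the comparisons turn are shown first, because the pyrimidine tract is the best known common feature of these genes. Each 30-base window comes from RefSeq (GRCm38.p6), reads 5′ to 3′ on the strand of the gene, and has its longest run of C and T in capitals. Rps12 (chr10:23787181-23787210, minus strand) and Rps24 (chr14:24490711-24490740, plus) had the lowest P60 to P3 ratios among AT1 cells, and Rpl12 (chr2:32961732-32961761, plus) the lowest P15 to P3 ratio. Rps19 (chr7:24884623-24884652, plus) had the highest level at P3, and Rps28 (chr17:33824566-33824595, minus) the highest ratio of AT2 to AT1 cells. Rps27l (chr9:66946064-66946093, plus) and Rpl22l1 (chr3:28805499-28805528, plus) had the highest P15 to P3 ratios of the paralogs that reached 50 CPM at either age, which Rpl7l1 did not. They are shown with the members after which they are named, Rps27 (chr3:90213631-90213660, minus) and Rpl22 (chr4:152325679-152325708, plus).
Rps12: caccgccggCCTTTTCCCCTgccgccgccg
Rps24: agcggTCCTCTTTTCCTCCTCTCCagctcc
Rpl12: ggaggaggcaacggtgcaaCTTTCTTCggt
Rps19: ccccgtcgTTCCCTTTCCCCTggctggcag
Rps28: ctgtcccgaggaTTCCTgggtaccgcgtgc
Rps27l: ctcctctccaCTCCTCCCCgccgcctctat
Rps27: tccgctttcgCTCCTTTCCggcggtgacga
Rpl22l1: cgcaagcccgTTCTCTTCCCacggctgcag
Rpl22: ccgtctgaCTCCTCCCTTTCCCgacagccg
The runs ranged from 5 bases in Rps28 to 19 in Rps24. Among the 61 members with a RefSeq window, 51 (83.6%) had a C/T run of 8 bases or more within 50 bases of the start, against 37.1% of 10704 other listed genes, and 23 (37.7%) had a run of 12 or more, against 10.8%. Annotated starts can lie off the base at which transcription begins, so these runs describe the window and are not mapped TOP tracts.

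Ribosomal protein mRNA made up 19.9% of all UMIs in AT1 cells at P3 (19.90 to 19.94%). At P15 the share was 7.20% (7.19 to 7.21%), and at P60 it was 4.45% (4.43 to 4.46%). In AT2 cells at P60 it was 14.2% (14.16 to 14.20%), between the youngest and the older AT1 cells. The order was the same cell by cell: the median cell had 19.7%, 6.86%, 4.20% and 14.0%, and the 5th and 95th percentiles of cells were 13.9 and 25.5%, 4.01 and 11.8%, 1.91 and 6.34%, and 9.74 and 18.5%. The distributions of P3 and P15 AT1 cells were nearly separate, with 98.0% of P15 cells below the 5th percentile of P3 cells, whereas P60 cells overlapped P15 cells and 43.6% of them lay below the P15 5th percentile. Of the AT2 cells, 99.8% lay above the median P60 AT1 cell and 98.9% above the median P15 AT1 cell, but 2.50% lay above the median P3 AT1 cell.

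**Figure D1:**
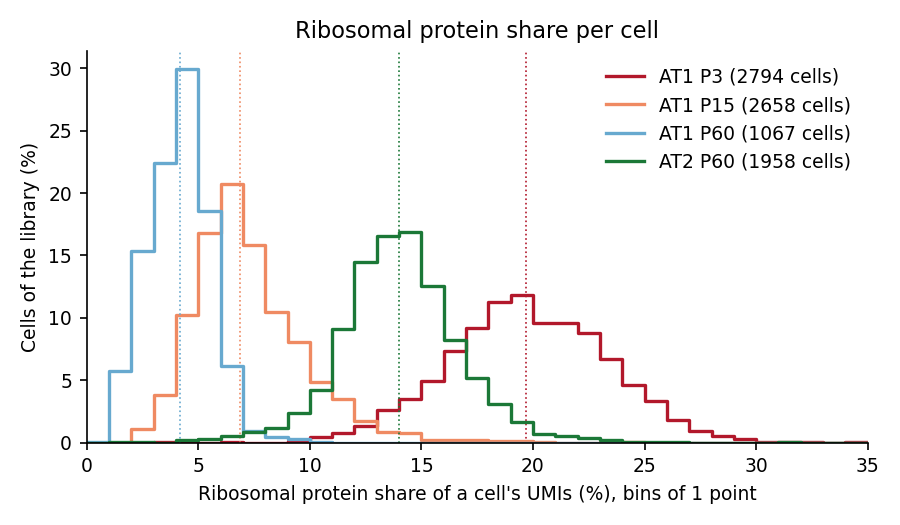
Ribosomal protein share of each cell's UMIs (percent, horizontal axis) in AT1 cells at P3, P15 and P60 and AT2 cells at P60, drawn as the percentage of the library's used cells per bin of 1 percentage point, with dotted lines at the medians. The median cell lay at 19.7%, 6.86%, 4.20% and 14.0%, and the P15 and P60 AT1 distributions overlapped while that of P3 stood apart from both.

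In UMIs per cell, the median AT1 cell held 1463 ribosomal protein UMIs at P3, 339 at P15 and 233 at P60, and the median AT2 cell 695.5. UMIs of all other genes spanned a narrower range, 5813.5, 4562 and 5344 per AT1 cell and 4207 per AT2 cell. The share therefore differed mostly in its numerator. The median cell still had a UMI from 81, 76 and 72 of the 82 members at the 3 AT1 ages and from 80 in AT2 cells. Malat1, a long RNA kept in the nucleus, made up a growing part of AT1 UMIs over age, with 4.26%, 6.67% and 16.5% at the 3 ages and 4.02% of AT2 UMIs. With Malat1, Neat1 and the mitochondrially encoded genes removed from the total, the ribosomal protein share was 21.3%, 7.99% and 5.54% in AT1 cells and 15.8% in AT2 cells. The few most abundant other genes weighed more on AT2 cells, where surfactant mRNA is abundant: without the 20 highest other genes of any library the shares were 24.3%, 9.47% and 6.33% in AT1 cells and 23.4% in AT2 cells, so that AT2 cells then stood close to AT1 cells at P3.

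Between P3 and P15, nearly all members were lower in UMIs per 1000000 (CPM). Of 81 members with at least 50 CPM and 30 UMIs in the higher library, 76 were at least 2-fold lower at P15, where 6.63% of 3286 genes compared were that much lower, and no member was 2-fold higher (background 9.25%). The median log2 ratio was -1.54 over the members against 0.13 over all genes compared, and the members together were 2.77-fold lower. 6 members were at least 4-fold lower (background 1.58%): Rpl12, Rps12, Rps10, Rpl30, Rps20 and Rps24. Rpl12, a protein at the base of the large subunit stalk, was at 1246 CPM at P3 and 181.2 CPM at P15, or 6.88-fold lower (6.6 to 7.17). Rps12, of the small subunit, went from 2589 to 384.5 CPM, or 6.73-fold lower (6.55 to 6.93). Rps10, near the mRNA entry of the small subunit, went from 2171 to 467.4 CPM, 4.64-fold lower (4.52 to 4.77). These folds were well over those of the typical member, and their counting intervals were narrow.

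The 5 compared members that missed the 2-fold line were Rps27l, Rpl22l1, Rpl41, Rps14 and Rpl18. Rps27l was 1.5-fold lower at P15 (1.46 to 1.55) and Rpl22l1 1.53-fold lower (1.5 to 1.57), and both are paralogs. Rpl41, which encodes a very small basic protein, was at 5240 CPM at P3 and 3003 CPM at P15, 1.74-fold lower (1.73 to 1.76). Rps14 and Rpl18 lay just short of the line at 1.93-fold and 1.99-fold lower. Every compared member was thus below its P3 level at P15, as were 40.5% of all genes compared, and what differed among the members was by how much.

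Between P15 and P60 the same genes were lower again, by less. Of 82 members 78 had a ratio under 1, as did 53.8% of all 3422 genes compared. The median log2 ratio was -0.68 against -0.05 over all genes compared, and the members together were 1.62-fold lower. 10 were at least 2-fold lower (background 4.59%). This count depended on the setting, from 4 with all cells of the libraries or with Malat1 out of the total to 35 without 1 AT1-like cluster at P60. Many members lay near the line (Rpl13 just past it and Rpl17 just short). The cluster left out there held 395 cells, some of them already set aside. Leaving it out took the cells used at P60 from 1067 to 713. The cluster had 1 gene of another cell type and no AT1 marker among its leading genes. All 20 AT1 markers were detected in it, at 1.06 of the library median, so 35 is not a count cleared of other cell types. Rps7 was at 734.1 CPM at P15 and 310.7 CPM at P60, 2.36-fold lower (2.25 to 2.48). Rps24 was at 731.9 and 310.9 CPM, 2.35-fold lower (2.24 to 2.47). Rps2, at the mRNA entry of the small subunit, was at 869.3 and 379.0 CPM, 2.29-fold lower (2.19 to 2.40). The lowest ratios were thus those of small subunit genes. None was 2-fold higher (background 3.89%), and the 4 members with a ratio above 1 were Rpl7l1, Rpl6l, Rps21 and Rps27l. Rps21 was at 390.2 and 395.0 CPM and Rps27l at 443.6 and 446.4 CPM, differences within counting error, and under trimmed-mean (TMM) scaling the log2 ratios of Rpl6l, Rps21 and Rps27l were -0.0034, -0.10 and -0.11.

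Over the whole span from P3 to P60, 80 of 82 members were at least 2-fold lower (background 9.79%) and 58 at least 4-fold lower (background 4.26%), with none 2-fold higher (background 13.2%). The median log2 ratio was -2.20 against 0.11 over all genes compared, a distance of -2.32, and the summed level was 4.48-fold lower. Rps12 was the lowest, at 2589 CPM at P3 and 241.6 CPM at P60, 10.7-fold lower (10.2 to 11.3). Rps24, whose product belongs to the small subunit and is mutated in Diamond-Blackfan anaemia, went from 2969 to 310.9 CPM, 9.55-fold lower (9.12 to 10.0). Rps20 went from 2509 through 582.5 to 296.4 CPM, 8.47-fold lower (8.08 to 8.88), and Rpl12 ended at 149.4 CPM, 8.34-fold lower (7.81 to 8.92). The exceptions were both paralogs: Rps27l ended 1.49-fold lower (1.43 to 1.56), and Rpl7l1 was at 43.9 CPM at P3, 41.9 at P15 and 54.9 at P60.

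AT2 cells at P60 had more of nearly every member than AT1 cells of the same age. Of 82 members 77 were at least 2-fold higher in AT2 cells (background 13.5%), 17 at least 4-fold higher (background 6.79%), and none was 2-fold lower (background 40.2%). The median log2 ratio was 1.66 over the members against -0.72 over all 3491 genes compared. TMM scaling moved the median of all genes to -0.07 and the background to 21.3% higher and 23.8% lower, and relative to all genes the members' median was 2.39 higher under CPM. Rps28, a small protein of the small subunit, was at 652.9 CPM in AT1 and 3850 CPM in AT2 cells, 5.90-fold higher (5.71 to 6.09). Rps12 was at 241.6 and 1408 CPM, 5.83-fold higher (5.52 to 6.16), and Rps3a1 at 372.1 and 1941 CPM, 5.22-fold higher (4.99 to 5.45). The 5 members short of 2-fold were Rpl7l1, Rps27l, Rpl29, Rpl15 and Rpl6l. Rps27l was at 446.4 and 454.4 CPM, a ratio of 1.02 (0.97 to 1.07), and its log2 ratio was -0.04 when all cells of both libraries were used. Rpl29 was 1.59-fold higher in AT2 cells (1.49 to 1.69) and Rpl15 1.71-fold (1.63 to 1.79). The comparisons among these 4 libraries share libraries, so their ratios are not independent of each other. Against AT1 cells at P3, 5 members had more CPM in AT2 cells (Rpl36al, Rpl41, Rps14, Rps27 and Rps28) and the other members had less. The share of all genes with more was not computed for these 2 libraries.

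**Figure D2:**
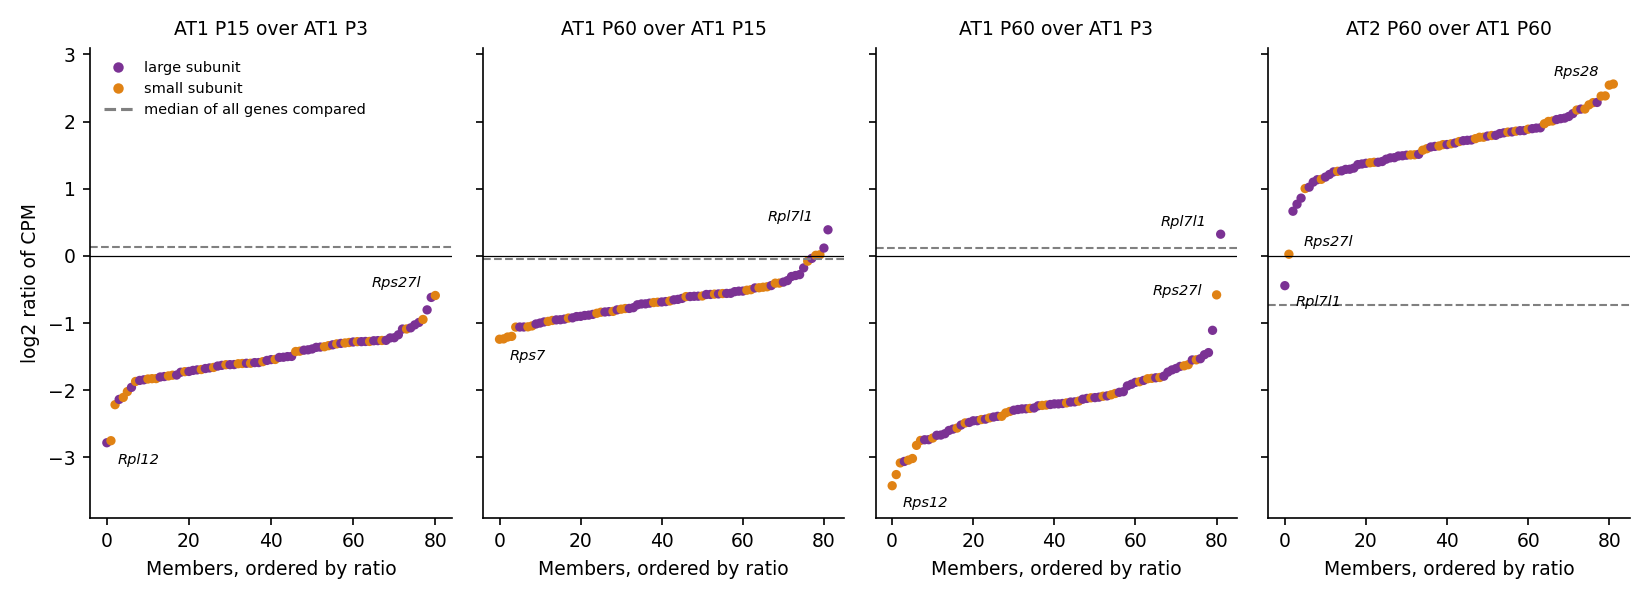
The log2 ratio of CPM of each member (vertical axis), with members ordered by ratio along the horizontal axis, in 4 comparisons; purple points are large subunit genes, orange points small subunit genes, and the dashed line is the median of all genes compared. Members form a continuous band, mostly away from that line, at a median of -1.54, -0.68, -2.20 and 1.66. At P60 against P15 the band reached and crossed the line. The paralog Rps27l lay at or near the end on the side of the line, as did Rpl7l1 where it was compared.

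At P3 the 5 highest members held 14.4% of ribosomal protein UMIs, and 17.7% at P15, 18.0% at P60 and 17.2% in AT2 cells. Each UMI counts a transcript's 3′ end, so these CPM values are not scaled by transcript length. Rps19, a small subunit protein needed for maturation of its subunit and the gene most often mutated in Diamond-Blackfan anaemia, was at 9253, 3828 and 1858 CPM in AT1 cells and 5534 CPM in AT2 cells. Rpl41 was at 5240, 3003 and 1813 CPM in AT1 cells and 6522 CPM in AT2 cells, where it was the highest member. Rpl37a was at 5369, 2303 and 1655 CPM and at 4097 CPM in AT2 cells. Because Rps19 was 4.98-fold lower at P60 than at P3 (4.89 to 5.08) and Rpl41 2.89-fold lower (2.83 to 2.95), their levels, far apart at P3, were close at P60. The number of members at 1000 CPM or more was 77 at P3, 19 at P15, 5 at P60 and 66 in AT2 cells.

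**Figure D3:**
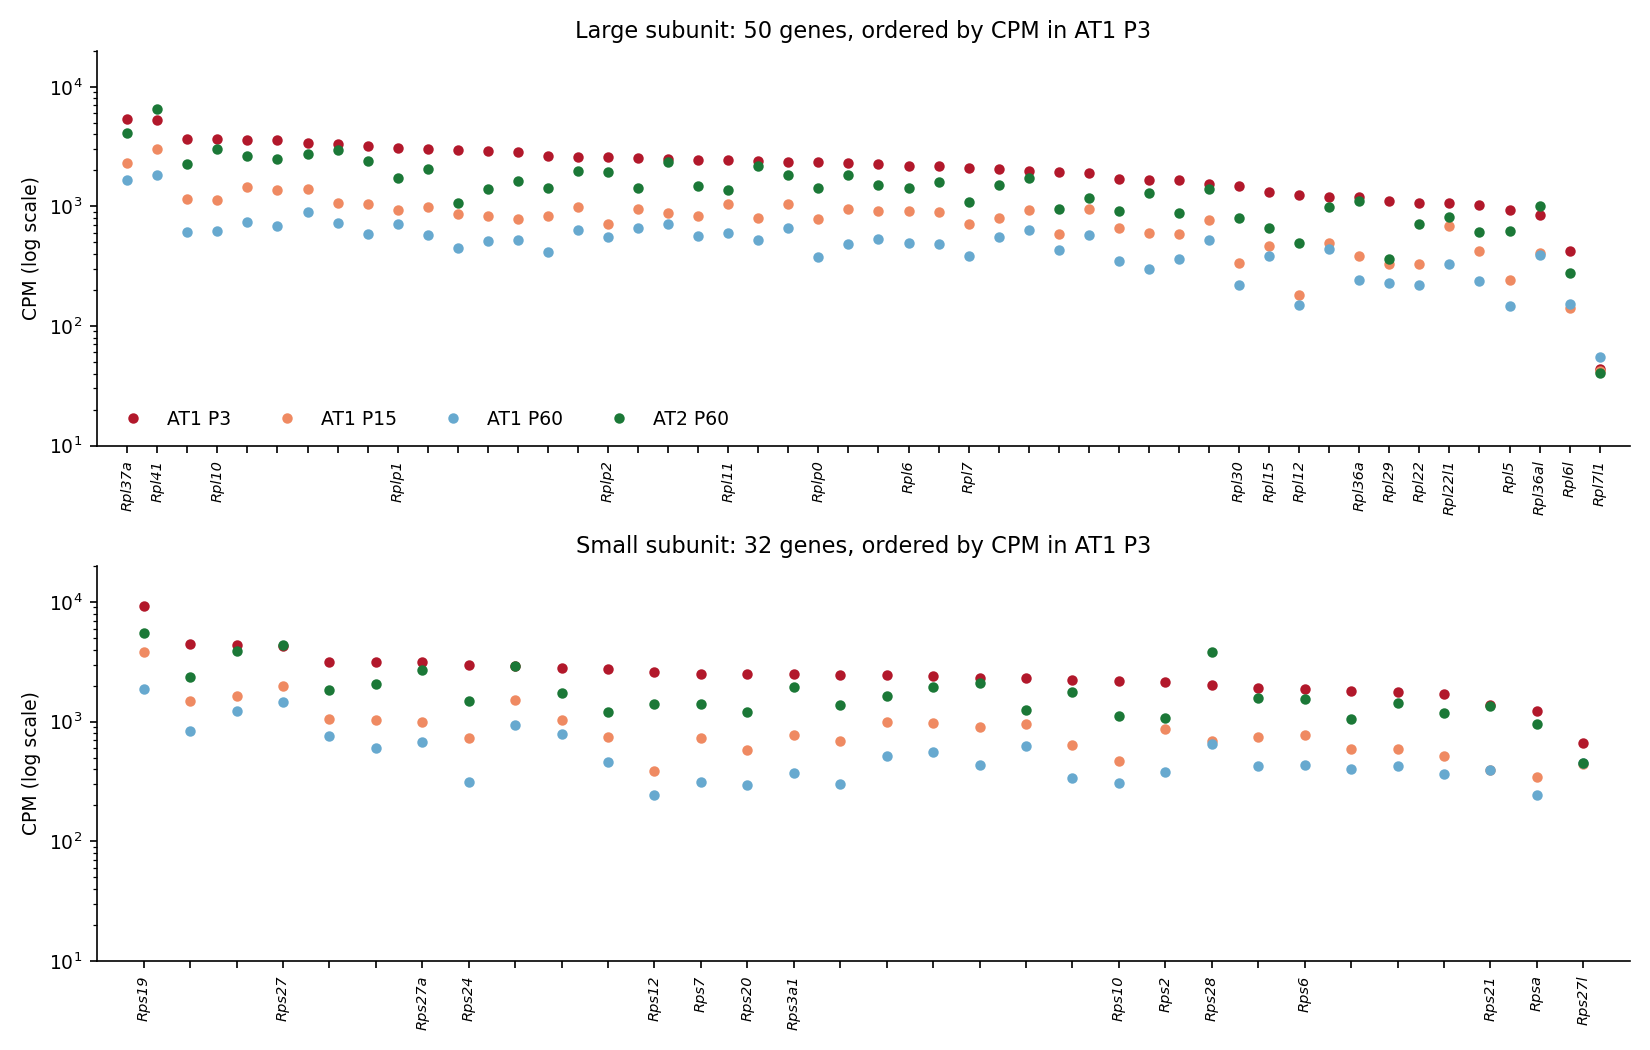
CPM (log axis) of the 50 large subunit genes (top) and 32 small subunit genes (bottom), ordered by CPM in AT1 cells at P3, with 1 point per gene and library; only genes described in the text are labelled. The median member lay at 2367, 795, 485 and 1453 CPM, and at P60 (blue) nearly all AT1 points lay below those of the other libraries.

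The large and small subunits were displaced together. Large subunit genes held 56.8% of ribosomal protein UMIs at P3 (56.75 to 56.84%), 58.2% at P15 (58.09 to 58.28%), 58.7% at P60 (58.52 to 58.89%) and 56.5% in AT2 cells (56.45 to 56.61%). This division of UMIs spanned a few percentage points while the total share spanned more than 4-fold. The median log2 ratio was -1.51 for large and -1.60 for small subunit genes at P15 against P3, -0.67 and -0.69 at P60 against P15, and 1.51 and 1.77 for AT2 against AT1 cells. Of the 10 members 2-fold lower at P60 than at P15, 3 of 50 were large and 7 of 32 small subunit genes. Of the 17 members 4-fold higher in AT2 cells, 7 were large and 10 small subunit genes. Across single cells thinned to 2000 UMIs, large and small subunit UMIs correlated within each library with Spearman rho of 0.83, 0.85, 0.76 and 0.78 (2794, 2448, 996 and 1919 cells), values that share the cell's total as denominator.

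By position in the ribosome the groups behaved like the whole set. The stalk genes, whose acidic proteins recruit elongation factors, were all at least 2-fold lower at P15 than at P3: Rplp0 was at 2364, 786.0 and 377.3 CPM over the 3 ages, Rplp1 at 3055, 927.1 and 707.7 CPM and Rplp2 at 2579, 718.0 and 556.6 CPM. Rplp0 alone of them passed 2-fold between P15 and P60, at 2.08-fold lower (1.99 to 2.18). In AT2 cells they stood at 1416, 1732 and 1933 CPM, each more than 2-fold above AT1 cells at P60. Rpl5 and Rpl11, which join the 5S rRNA in a particle that can bind the p53 regulator Mdm2, were at 934.6 and 2422 CPM at P3 and at 146.8 and 596.5 CPM at P60. All 6 genes around the polypeptide exit tunnel (Rpl19, Rpl23a, Rpl26, Rpl31, Rpl35 and Rpl39) and all 4 near the catalytic centre (Rpl3, Rpl4, Rpl8 and Rpl10) were at least 2-fold lower at P15 than at P3 and at least 2-fold higher in AT2 than in AT1 cells at P60. Rpl10, which is added late to the large subunit, was at 3689, 1138 and 617.4 CPM in AT1 cells and 3011 CPM in AT2 cells, 4.88-fold higher there. Rps6, the substrate of the S6 kinases, was at 1863, 778.6 and 430.8 CPM and at 1546 CPM in AT2 cells. Rps27a, made as a fusion with ubiquitin, was at 3126, 988.8 and 670.5 CPM and at 2687 CPM in AT2 cells. Rpsa, which encodes the small subunit protein also known as the laminin receptor, was at 1226, 345.6 and 242.6 CPM and at 949.4 CPM in AT2 cells. All 12 members of a list of Diamond-Blackfan anaemia genes were at least 2-fold lower at P60 than at P3, and 11 of the 12 were at least 2-fold higher in AT2 than in AT1 cells, shares like those of all members.

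At P60 the paralogs had kept more of their P3 level in AT1 cells than had the genes after which they are named. Their share of each pair was therefore larger at P60 than at P3. At P15 this did not hold for Rpl6l, with a P15 to P3 ratio of 0.333 against 0.417 for Rpl6. Rps27l, a target of p53, supplied 13.6% of the UMIs of the Rps27 pair at P3, 18.1% at P15 and 23.5% at P60 in AT1 cells, and 9.35% in AT2 cells. Rps27 itself was at 4257, 2003 and 1457 CPM in AT1 cells and 4405 CPM in AT2 cells, while Rps27l was at 667.3, 443.6, 446.4 and 454.4 CPM. The 3 later libraries therefore had nearly the same Rps27l level, and the AT2 to AT1 difference in the pair was that of Rps27. Rpl36al supplied 41.7%, 51.4% and 61.8% of its pair with Rpl36a over the AT1 ages and 47.7% in AT2 cells. Rpl7l1, which takes part in ribosome assembly, supplied 2.07%, 5.56% and 12.5%, and 3.6% in AT2 cells. Rpl22l1 followed another course, at 49.6%, 67.6% and 59.9% of its pair with Rpl22 and 53.2% in AT2 cells. It was at 1057, 688.9 and 330.8 CPM in AT1 cells, 1.53-fold lower over the first interval and 2.08-fold lower over the second (1.98 to 2.19), while Rpl22 was at 1075, 329.8 and 221.6 CPM. Rpl6l was at 16.2%, 13.4% and 23.5% of its pair and at 16.3% in AT2 cells. Its transcript was not matched, so its sequence overlap with Rpl6 was not measured and the split of its counts is uncertain. Other pairs also hold genes with shared transcript ends, described below, and the split of their counts is uncertain too. Rps27rt, a listed gene outside the members whose symbol extends that of Rps27, was not counted in the Rps27 pair. It was at 436.1, 174.3 and 618.1 CPM in AT1 cells and 1215 CPM in AT2 cells. Unlike Rps27 it was thus 3.55-fold higher at P60 than at P15. Its part in the Rps27 and Rps27l values was not tested.

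**Figure D4:**
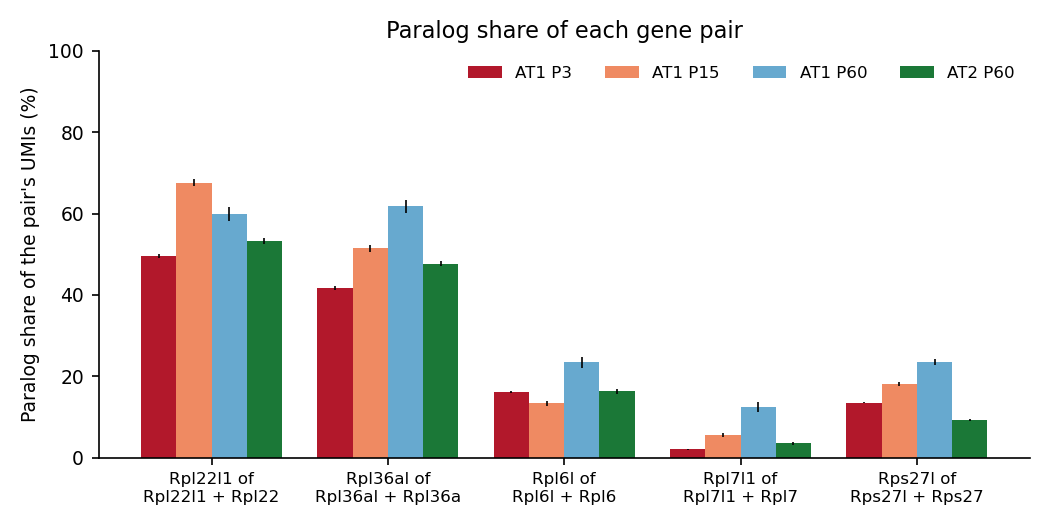
Percent of a pair's UMIs that came from the paralog (vertical axis), with 1 bar per library, for the pairs of Rpl22l1, Rpl36al, Rpl6l, Rpl7l1 and Rps27l with the member each is named after; thin lines are exact 95% intervals. In 4 pairs the P60 AT1 value was the highest of the libraries, while the Rpl22 pair was highest at P15 with 67.6%.

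Many ribosomal protein transcripts have processed pseudogenes with nearly the same sequence, and reads from a copy and its parent may not be separable. Listed genes named as such pseudogenes had a median log2 ratio of -2.46 at P15 against P3 (11 compared). Unlike the members, they stood at 0.57 at P60 against P15 (9 compared, 2 of them below 0). The median was -2.28 at P60 against P3 and 0.89 for AT2 against AT1 cells. Over the last 300 bases of the annotated GENCODE transcripts of 81 matched members, 61 (75.3%) shared at least 1 50-base word with another gene and 45 (55.6%) shared over 50% of them, against 7.13% and 2.26% of 13122 other listed protein-coding genes. Rps12 shared 94.4% of its words with 23 genes, 22 of them pseudogenes, so its counts are uncertain, whereas Rps24, Rps20 and Rpl12 shared none. Of the paralog pairs, Rps27 and Rpl36a shared 100% of their words with other genes, Rpl7 74.1%, Rpl36al 70.1% and Rpl22l1 63.3%. Lower values were those of Rpl22 (23.9%), Rps27l (21.9%), Rpl7l1 (2.39%) and Rpl6 (0%). The ratios were alike with and without sharing: the 20 members with no shared words had a median log2 ratio of -1.60 at P15 against P3, -2.24 at P60 against P3 and 1.74 for AT2 against AT1 cells, and the 45 with most words shared had -1.50, -2.20 and 1.63. The pyrimidine runs shown above also separated the members little, and most at P15 against P3. There the 23 with a run of 12 or more had a median of -1.60, and the 38 without had -1.40. At P60 against P15 the medians were -0.72 and -0.66, at P60 against P3 -2.23 and -2.15, and for AT2 against AT1 cells 1.68 and 1.71. The letters CTTTCC stood on the gene's strand within the 100 bases around the start in 19 of 61 members (31.1%) and in 5.07% of other listed genes. These 19 had a median of -1.51 at P15 against P3, -0.61 at P60 against P15 and -2.20 at P60 against P3. The other members had -1.55, -0.71 and -2.18. For AT2 against AT1 cells the medians were 1.57 and 1.76. Over the whole window of 300 bases, CCGGAAG, an ETS-like motif, occurred on either strand in 25 of 61 members (41%), in 18.5% of other listed genes and in 8.86% of all 32851 windows of that length. AAGATGG, which resembles YY1 motifs, occurred in 10 (16.4%), against 7.95% of other listed genes and 6.34% of all windows. TATAAA occurred in 7 (11.5%), against 9.14% of other listed genes and 13.6% of all windows.

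Related genes showed how far the pattern reached. Fau and Gnb2l1, ribosomal protein genes with names of another form, were both at least 2-fold lower at P15 and P60 than at P3. Fau, a small subunit protein made as a ubiquitin-like fusion, was at 2983, 1057 and 619.1 CPM in AT1 cells and 1921 CPM in AT2 cells. Among 13 elongation factors and other TOP mRNAs, 4 were 2-fold lower at P15 than at P3 (6.63% of all genes compared) and 10 at P60 than at P3 (9.79%), and 7 were 2-fold higher in AT2 than in AT1 cells (13.5%). Eef1a1, which brings aminoacyl-tRNA to the ribosome, was at 4918, 1277 and 707.5 CPM in AT1 cells and 2826 CPM in AT2 cells. Of the translation initiation factors, none of 26 was 2-fold lower at P15 than at P3 (6.63% of all genes) and 5 of 27 were at P60 (9.79%). None of 42 to 44 mitochondrial ribosomal protein genes was 2-fold lower between any of the AT1 ages, their summed share was 0.549%, 0.554% and 0.568%, and in AT2 cells it was 0.429%. Only 8 of 36 ribosome biogenesis genes reached the level for comparison, and 2 of those 8 were 2-fold lower at P60 than at P3 (9.79% of all genes). The displacement was thus not found in the mitochondrial ribosomal protein genes, and whether lists differ was not tested. Of the immediate early genes, 12 of 15 were at least 2-fold lower at P60 than at P3 (9.79% of all genes), and their part in the ribosomal protein result was not tested. Within the P3 library the tertiles of cells with the lowest, middle and highest share of immediate early genes had median ribosomal protein shares of 19.9%, 19.8% and 19.5%.

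Within each library the ribosomal protein share differed from cell to cell along with other quantities. In AT1 cells at P60 it correlated with the Malat1 share at a Spearman rho of -0.73 (1067 cells), and at -0.59 with Malat1 taken out of the total. At P3, P15 and in AT2 cells the coefficients were -0.27, -0.39 and -0.28. At P60 it also correlated with UMIs per cell, at 0.52, and the tertiles of cells with the fewest, middle and most UMIs had median shares of 3.05%, 4.20% and 4.79%, all under the P15 median. At P3, P15 and in AT2 cells the correlation with UMIs was 0.12, -0.04 and 0.07. The 4 AT1-like clusters at P60 followed the same gradient, with shares of 5.26%, 4.33%, 3.37% and 2.16% and Malat1 at 12.8%, 17.1%, 21.2% and 28.1%. The part of depth and of nuclear RNA in the P60 level was not tested. The correlation with the share of the sorted type's markers was -0.58 at P3, -0.38 at P15, 0.19 at P60 and -0.33 in AT2 cells, where it was 0.0006 with the markers taken out of the total. The tertiles of cells with the lowest, middle and highest AT1 marker share had median ribosomal protein shares of 22.2%, 19.7% and 17.5% at P3, and of 3.70%, 4.38% and 4.35% at P60, so the direction was not the same at the 2 ages. These coefficients are between shares of the same total and describe these libraries.

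**Figure D5:**
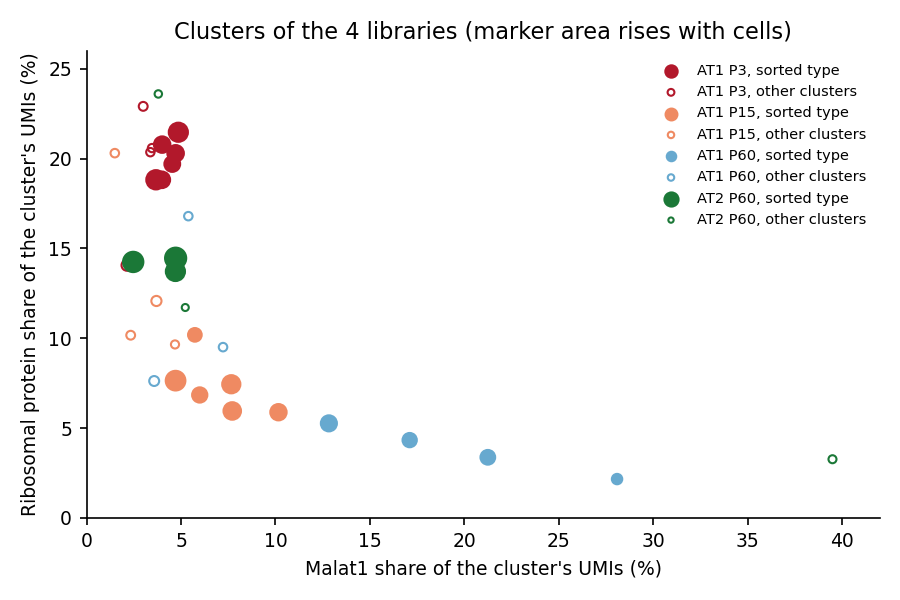
Ribosomal protein share of UMIs (percent, vertical axis) against Malat1 share of UMIs (percent, horizontal axis) in every cluster of the 4 libraries, 1 point per cluster with an area that rises with its cells; filled points are clusters of the sorted type, open points all other clusters, and colours are libraries. AT1-like clusters lay at 18.8 to 21.5% at P3, 5.88 to 10.2% at P15 and 2.16 to 5.26% at P60, and all other clusters in the P15 and P60 AT1 libraries lay at 7.62% or more. The open point at 7.62% is an unnamed P60 cluster of 102 cells with AT1 markers and platelet genes.

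Clusters left out of the sorted type, of other or unnamed types, gave a reference within each library. In the P15 library, immune-like cells had 20.3% ribosomal protein UMIs (54 cells), cells of a mixed fibroblast-like and pericyte-like cluster 12.1% (110 cells), club and AT2-like cells 10.2% (63 cells) and endothelial-like cells 9.65% (42 cells), against 7.20% in AT1-like cells. In the P60 AT1 library a mixed cluster led by endothelial, fibroblast and smooth muscle genes had 9.50% (54 cells), and a mixed cluster led by AT2 and immune genes had 16.8% (53 cells). Of the latter, 47 cells had immune marker UMIs, and AT2 markers made up 4.52% of their UMIs. The other 6 cells had 23.2% of their UMIs from AT2 markers and a summed ribosomal protein share of 14.2% (13.9 to 14.5%), with single cells from 11.1 to 17.7% and a median of 12.5%. An unnamed P60 cluster of 102 cells had platelet genes among its leading genes, though all 20 AT1 markers were detected in it, at 1.04 of the library median. Its ribosomal protein share was 7.62%, above that of every AT1-like P60 cluster, with Malat1 at 3.58% and a median of 1989 UMIs. In the P3 library 55 AT2-like cells with no immune marker UMI, at a median of 16534 UMIs, had 22.9%, and club and ciliated-like cells had 14.1% (142 cells). A fibroblast and endothelial-like cluster at P3 had 20.4% (50 cells), so a higher share at P3 than at P15 was not seen in AT1-like cells alone. In the AT2 library immune-like cells had 23.6% (22 cells), and an unnamed cluster of 38 cells at a median of 1184 UMIs had 3.26% with Malat1 at 39.5%.

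Single members varied with the rest of the set to different degrees. The correlation of a member's log value with the summed share of the other members across thinned cells, averaged over the 4 libraries, was highest for Rps19 (0.51), Rps27 (0.43) and Rpl37a (0.42), all among the 5 highest members at P60. It was lowest for Rpl7l1 (0.01), Rpl36al (0.13), Rps27l (0.13), Rpl12 (0.15) and Rpsa (0.16). At P3 the coefficient of Rps27l was -0.003. Counting noise lowers these values for sparse genes, and Rpl7l1, Rps27l and Rpl12 were among the members with the fewest UMIs in several libraries, so the part of depth in this order was not tested. Of 648 other genes with at least 100 CPM in every library, those most correlated with the ribosomal protein share were Fau (0.34), Eef1a1 (0.32), the ferritin genes Fth1 (0.31) and Ftl1 (0.30), the predicted gene Gm8730 (0.29), Tpt1 (0.28), Tmsb4x (0.24) and Rps27rt (0.22), and the least was Malat1 (-0.39).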

How the data were processed

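Single-cell libraries were made with the 10X 3′ protocol, and Cell Ranger 1.3.1, Seurat 2.0.0 and the builds mm10 and hg19 are named in the submitters' processing notes; what hg19 was used for, how many animals went into each library and whether doublets were removed were not given in the sources used here. Natural log values were deposited by the authors, each a gene's UMIs in a cell scaled to 10000 plus 1, and whole UMIs were recovered for 100% of them (tolerance 0.05). Cells were clustered per library with Scanpy 1.11.5 (2000 variable genes, 20 components, 15 neighbours, Leiden resolution 0.5) without the ribosomal protein genes, and named from marker lists; the naming thresholds were set after the clusters were seen, and no doublet caller was run. UMIs were summed per library and scaled to CPM. A gene entered a comparison with 50 CPM and 30 UMIs in the higher library. Ratios have exact conditional Poisson and shares exact Clopper-Pearson 95% intervals, which cover counting error only. Members, lists and tests were chosen with earlier results of these data known. Genes named are the 5 highest members per library, the 4 highest and lowest ratios per comparison at 100 CPM or more, paralogs, role groups, the top of each related list and the 8 most alike genes; Rps14, Rpl18, Rpl13 and Rpl17 near the 2-fold line and the other members counted at 4-fold were named after their values were seen. Alternatives were all cells, TMM, median-of-ratios, other totals, depth bands, thinning, clusterings and folds. On simulated counts all 200 of 200 changed genes were called in each comparison. Intervals held the true ratio for 94.3 to 94.9% of genes there. How calls fare near the 2-fold line, or with variation between animals or libraries, was not tested. Promoter windows came from RefSeq (61 of 82 members matched) and transcripts from GENCODE. Some genes are not reported here by name.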

Additional observations from a re-analysis of the deposited data

How the results depend on the processing

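No paired analysis was possible because each group had 1 library and the labels give no replicate numbers. Of 499 values under alternatives, 119 stayed within the error of the main value, 372 moved beyond it, mostly by little since counting intervals are narrow, and 8 turned direction; the cause was not tested. The ribosomal protein share in AT1 P3, P15 and P60 and AT2 P60 was 19.63, 7.722 and 5.137% with all cells (AT1), 19.79, 7.304, 4.164 and 14.05% as a mean over cells, 19.79, 7.233, 4.188 and 14.07% thinned to 2000 UMIs, 19.19, 7.374, 4.15 and 14.32% in cells of 4000 to 6000 UMIs, 21.31, 7.989, 5.542 and 15.8% without Malat1, Neat1 and mitochondrially encoded genes, and 24.34, 9.472, 6.331 and 23.36% without the 20 highest other genes of any library. It was 3.773% at P60 and 13.98% in AT2 cells without sorted-type clusters that had more leading genes of another type than of their own. This alternative was chosen after seeing the data. The clusters so left out (395 AT1-like and 745 AT2-like cells, some already set aside) had their own markers at 1.06 and 1.00 of the library median. The cells used went from 1067 to 713 for AT1 at P60 and from 1958 to 1248 for AT2. With members clustered on, the share was 14.15% in AT2 cells. The large subunit percentage was 58.38, 59.68, 59.54 and 56.76% without the highest member of each subunit, 56.51, 58.04 and 58.18% (AT1) in the depth band, 56.89 (P3) and 58.23% (P60) with all cells, and 56.42% in AT2 cells without those clusters. The count of members 2-fold lower at P60 than at P15, 10, was 4 with all cells, 23 under TMM, 24 under median-of-ratios, 4 without Malat1 in the total, 19 thinned, 27 in the depth band, 35 without those clusters and 51 at 1.5-fold. The counts at P15 against P3 (73 to 81), P60 against P3 (77 to 80) and higher in AT2 cells (71 to 80) stayed within 1.5 times the main count under every alternative run. Log2 ratios that turned direction at P60 against P15 were Rpl6l (-0.003383, TMM), Rps21 (-0.103, TMM; -0.02629 without ribosomal, mitochondrial and haemoglobin genes in the total), Rps27l (-0.1113 and -0.03458 likewise) and Rps28 (0.1132, all cells), and for AT2 against AT1 Rpl7l1 (0.2101, TMM) and Rps27l (-0.04368, all cells).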
